A study of Bos taurus with 29 samples.

Results

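The 7 genes described here belong to the vasoactive systems that are studied in luteal regression: EDN1, the precursor gene of the peptide endothelin-1, its converting enzyme ECE1, the endothelin receptors EDNRA and EDNRB, the angiotensin-converting enzyme ACE, the angiotensin II receptor AGTR1 and the endothelial nitric oxide synthase NOS3. They were taken by symbol from a bovine corpus luteum table of 19112 genes, which held 7 of 7, and 7 of 7 were among the 18939 genes tested after a filter on low counts. The corpus luteum is the ovarian gland that secretes progesterone, and its samples (Bos taurus, slaughterhouse tissue) fell into 4 groups of 3 libraries. CM_EE_IVF, CM_EE_AI and CM_EE carry the names of endometrial explants kept with a single day 7 embryo made in vitro, with a single day 7 embryo made in vivo, or without an embryo. The labels leave CM unexplained, and it is taken here for medium from those explants, with NC as the control. The labels do not say how long the luteal samples were exposed, whether they were slices or cells, or the age or cycle stage of the cows. Each group had 1 library with each of the numbers R5, R4 and R2, whose meaning is not given, and the titles of the R2 samples have another form. The replicates are not stated to be separate animals, so the p-values below measure the spread between these samples.

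Endothelial cells make endothelin as an inactive precursor that ECE1 cleaves, and the peptide acts through EDNRA, which contracts vessels, and through EDNRB, which on endothelium releases nitric oxide and clears the peptide. ACE, also an endothelial enzyme, makes angiotensin II, which acts on AGTR1, while NOS3 makes the nitric oxide that relaxes vessels. In cattle, prostaglandin F from the uterus raises luteal endothelin, and endothelin and angiotensin II are known there as agents that narrow luteal vessels and lower progesterone secretion.

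The libraries held 16536797 to 25747637 counts, of which mitochondrially encoded genes took 44.4% to 64.0%. Levels are given below in CPM (counts scaled to a common library size, with factors from TMM, the trimmed mean of M values), which is not a measure per length, so levels are compared between libraries and not between genes. The luteal markers STAR, CYP11A1 and HSD3B1 were detected in 12 of 12 libraries, as were all 14 endothelial and all 11 smooth muscle and pericyte markers. Of the epithelial markers, EPCAM was at 0 in 4 libraries and MUC1 in 3, while KRT8, CDH1 and KRT18 were detected in 12 of 12, with means of 22.2, 7.63 and 1.71 CPM. Of the leukocyte markers, MS4A1 was at 0 in 1 library, and PTPRC averaged 27.4 CPM. The libraries differed in part by R number. The mitochondrial share was 54.8% to 64.0% in R5, 44.4% to 48.9% in R4 and 49.5% to 55.9% in R2, so R4 lay lowest while R5 and R2 overlapped. The 14 endothelial markers summed to 1351 to 1887 CPM in R5, 1294 to 1949 CPM in R4 and 3413 to 4748 CPM in R2. FLT1 alone made up much of the R2 sum, and without it the sum was 1029 to 1421 CPM in R5, 962 to 1417 CPM in R4 and 1657 to 2121 CPM in R2. The 8 steroidogenic markers summed to 1373 to 2067 CPM in R5, 1600 to 5814 CPM in R4 and 1335 to 2309 CPM in R2. The biological coefficient of variation within groups was 0.519.

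None of the 7 genes passed the test in any of the 6 comparisons between groups. In the 42 tests of 1 gene in 1 comparison, edgeR's quasi-likelihood test with Benjamini-Hochberg adjustment over the 18939 genes gave adjusted p-values that round to 1 and unadjusted p-values from 0.0458 to 0.94. The background was the same, with 0 genes (0%) passing in each comparison. Unadjusted p-values under 0.05 were seen for 142 genes (0.75%) in CM_EE against NC, 213 (1.12%) in CM_EE_AI against NC and 281 (1.48%) in CM_EE_IVF against NC. They were seen for 242 genes (1.28%) in CM_EE_AI against CM_EE, 285 (1.5%) in CM_EE_IVF against CM_EE and 127 (0.671%) in CM_EE_IVF against CM_EE_AI. DESeq2 also called 0 genes in each, with 197, 342, 444, 317, 406 and 170 unadjusted p-values under 0.05 in the same order. Of the 42 intervals of the members' log2 fold changes, 41 held 0, and the exception was NOS3 in CM_EE_AI against CM_EE. The comparisons of the same group with others share its libraries and are not independent. Their model held group alone, so the differences between R numbers described below stayed in the spread behind these p-values and intervals.

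**Figure D1:**
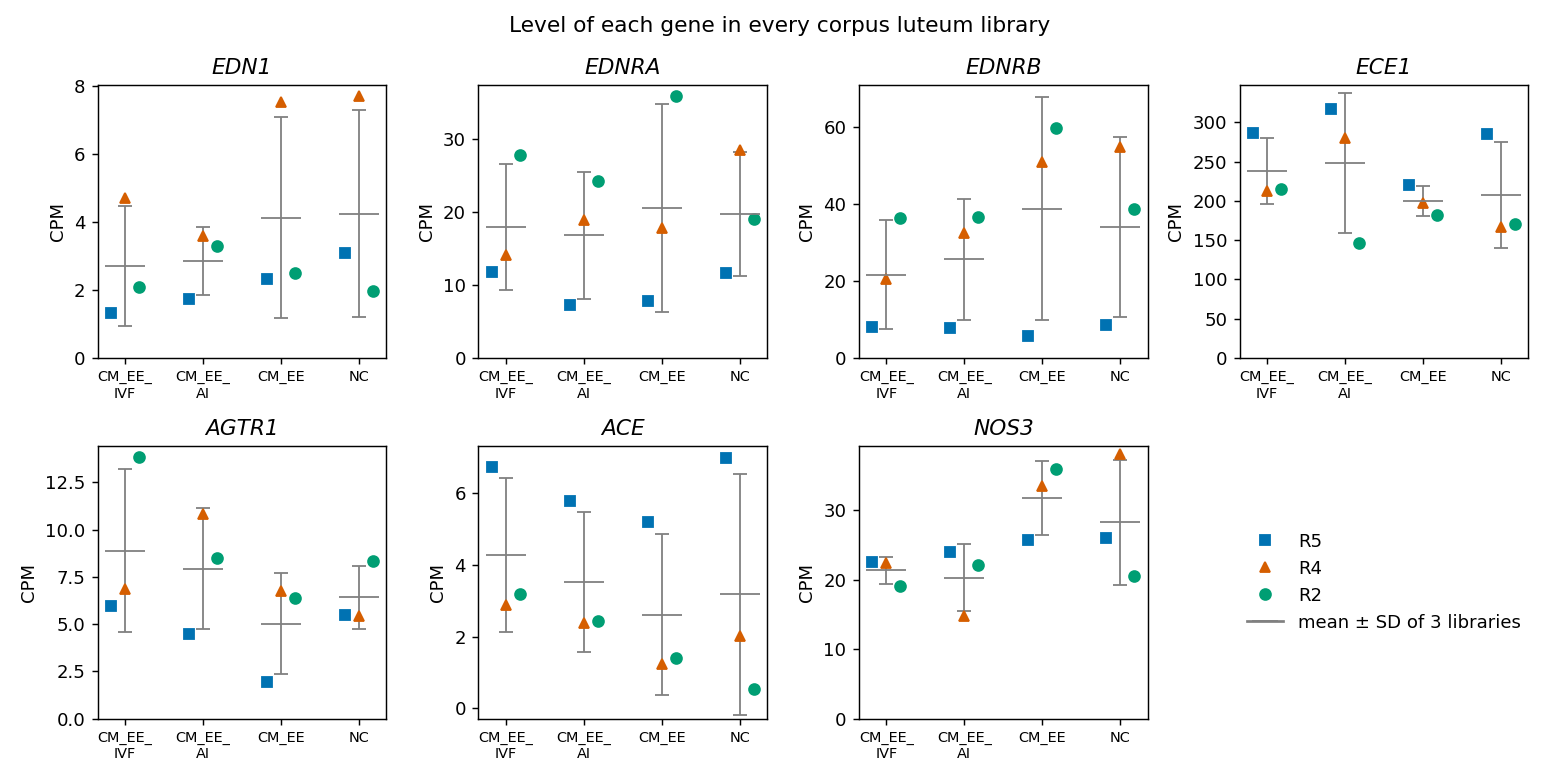
Level of each of the 7 genes in CPM (vertical axes, 1 scale per gene) in the groups CM_EE_IVF, CM_EE_AI, CM_EE and NC, with points for single libraries marked by R number and bars for the mean ± SD of 3 libraries. NOS3 is the gene whose CM_EE_IVF and CM_EE_AI libraries all lie under the CM_EE libraries, while the R5 libraries lie lowest for EDNRB in every group and highest for ACE.

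EDN1, the ligand gene, was at 1.33, 4.68 and 2.08 CPM in R5, R4 and R2 of CM_EE_IVF, 1.72, 3.57 and 3.27 CPM in CM_EE_AI, 2.33, 7.52 and 2.49 CPM in CM_EE and 3.09, 7.68 and 1.96 CPM in NC. The 4 groups overlapped, and the highest library of each group was R4. Group means were 2.70 ± 1.76 CPM in CM_EE_IVF, 2.85 ± 0.994 CPM in CM_EE_AI, 4.11 ± 2.95 CPM in CM_EE and 4.24 ± 3.03 CPM in NC (SD, n = 3 each). On the log2 scale the fold change was -0.60 in CM_EE_IVF over CM_EE (95% interval -2.01 to 0.80) and -0.65 in CM_EE_IVF over NC (interval -2.05 to 0.75). EDN1 rested on few counts, from 31 in CM_EE_IVF R5 to 167 in NC R4, and the exact Poisson interval of that lowest library was 0.902 to 1.88 CPM, for counting error alone.

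ECE1, which cleaves the endothelin precursor, was at 286, 212 and 215 CPM in R5, R4 and R2 of CM_EE_IVF, 318, 280 and 147 CPM in CM_EE_AI, 221, 197 and 182 CPM in CM_EE and 286, 166 and 171 CPM in NC. Its groups overlapped, and R5 was the highest library of each. The means were 238 ± 41.9 CPM in CM_EE_IVF, 248 ± 89.7 CPM in CM_EE_AI, 200 ± 19.2 CPM in CM_EE and 208 ± 67.6 CPM in NC (SD, n = 3). The largest of its log2 fold changes was 0.31 in CM_EE_AI over CM_EE, with an interval from -0.42 to 1.04. Against CM_EE, the CM_EE_IVF level was higher in 3 of 3 R numbers, by 0.38, 0.11 and 0.24 on the log2 scale in R5, R4 and R2, as were 17.8% of all genes.

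EDNRA, the receptor that contracts smooth muscle, was at 11.8, 14.1 and 27.7 CPM in R5, R4 and R2 of CM_EE_IVF, 7.25, 18.8 and 24.2 CPM in CM_EE_AI, 7.78, 17.8 and 35.9 CPM in CM_EE and 11.6, 28.4 and 19.0 CPM in NC. R5 was the lowest library in each group, and the groups overlapped. The means were 17.9 ± 8.63 CPM in CM_EE_IVF, 16.7 ± 8.65 CPM in CM_EE_AI, 20.5 ± 14.2 CPM in CM_EE and 19.6 ± 8.46 CPM in NC (SD, n = 3). Its log2 fold changes lay between -0.29 in CM_EE_AI over CM_EE and 0.09 in CM_EE_IVF over CM_EE_AI.

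EDNRB, the endothelial receptor that clears the peptide, was at 8.01, 20.5 and 36.2 CPM in R5, R4 and R2 of CM_EE_IVF, 7.68, 32.5 and 36.7 CPM in CM_EE_AI, 5.62, 50.9 and 59.8 CPM in CM_EE and 8.58, 54.7 and 38.6 CPM in NC. The spread within a group was wider than for the other endothelin genes, the highest library of CM_EE being 10.6 times its lowest. The means were 21.6 ± 14.1 CPM in CM_EE_IVF, 25.6 ± 15.7 CPM in CM_EE_AI, 38.8 ± 29.0 CPM in CM_EE and 34.0 ± 23.4 CPM in NC (SD, n = 3). This gave a log2 fold change of -0.84 in CM_EE_IVF over CM_EE (95% interval -2.70 to 1.01). Within R4 alone the difference between these groups was -1.31, within R2 it was -0.72, and within R5 it was 0.51, so the R numbers did not share a direction. Against NC, the CM_EE_IVF level was lower in 3 of 3 R numbers, by -0.10, -1.42 and -0.09 on the log2 scale in R5, R4 and R2, as were 12.1% of all genes. The CM_EE_AI level was also lower than NC in 3 of 3, by -0.16, -0.75 and -0.07, as were 12% of all genes.

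ACE, which makes angiotensin II, was at 6.72, 2.87 and 3.19 CPM in R5, R4 and R2 of CM_EE_IVF, 5.77, 2.38 and 2.42 CPM in CM_EE_AI, 5.18, 1.23 and 1.39 CPM in CM_EE and 6.95, 2.02 and 0.552 CPM in NC. The R5 library was the highest of each group, and the groups overlapped. The means were 4.26 ± 2.14 CPM in CM_EE_IVF, 3.52 ± 1.95 CPM in CM_EE_AI, 2.60 ± 2.24 CPM in CM_EE and 3.18 ± 3.35 CPM in NC (SD, n = 3). The log2 fold change was 0.70 in CM_EE_IVF over CM_EE (95% interval -1.04 to 2.44) and 0.43 in CM_EE_AI over CM_EE (interval -1.31 to 2.17). Against CM_EE, ACE was higher in 3 of 3 R numbers in CM_EE_IVF (0.38, 1.22 and 1.19 on the log2 scale in R5, R4 and R2) and in CM_EE_AI (0.16, 0.95 and 0.80), as were 17.8% and 14.4% of all genes in these comparisons. CM_EE_IVF was above CM_EE_AI in 3 of 3 as well, by 0.22, 0.27 and 0.40, as were 5.91% of all genes. The counts ran from 11 in NC R2 to 157, and the Poisson interval of NC R2 was 0.275 to 0.987 CPM.

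AGTR1, the receptor of angiotensin II, was at 5.95, 6.86 and 13.8 CPM in R5, R4 and R2 of CM_EE_IVF, 4.49, 10.8 and 8.52 CPM in CM_EE_AI, 1.93, 6.73 and 6.37 CPM in CM_EE and 5.49, 5.43 and 8.33 CPM in NC. The highest library was CM_EE_IVF R2 and the lowest CM_EE R5, and the groups overlapped. The means were 8.89 ± 4.32 CPM in CM_EE_IVF, 7.94 ± 3.20 CPM in CM_EE_AI, 5.01 ± 2.67 CPM in CM_EE and 6.41 ± 1.66 CPM in NC (SD, n = 3). The log2 fold change was 0.83 in CM_EE_IVF over CM_EE (95% interval -0.26 to 1.92) and 0.66 in CM_EE_AI over CM_EE (interval -0.42 to 1.75). AGTR1 was above CM_EE in 3 of 3 R numbers in both, as were 17.8% of all genes in CM_EE_IVF and 14.4% in CM_EE_AI, by 1.62, 0.03 and 1.12 in R5, R4 and R2 of CM_EE_IVF and by 1.21, 0.68 and 0.42 in CM_EE_AI. Without CM_EE R5 the CM_EE_AI difference was 0.28, and without CM_EE_IVF R2 the CM_EE_IVF difference was 0.36.

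NOS3, the endothelial enzyme that makes nitric oxide, was at 22.5, 22.3 and 19.1 CPM in R5, R4 and R2 of CM_EE_IVF, 23.9, 14.8 and 22.2 CPM in CM_EE_AI, 25.7, 33.5 and 36.0 CPM in CM_EE and 26.0, 38.1 and 20.5 CPM in NC. Each CM_EE_IVF and CM_EE_AI library lay below each CM_EE library, and NC, at 20.5 to 38.1 CPM, overlapped each of the other groups. The means were 21.3 ± 1.90 CPM in CM_EE_IVF, 20.3 ± 4.85 CPM in CM_EE_AI, 31.7 ± 5.35 CPM in CM_EE and 28.2 ± 8.98 CPM in NC (SD, n = 3). The log2 fold change was -0.64 in CM_EE_AI over CM_EE (95% interval -1.27 to -0.01, unadjusted p = 0.0458 and adjusted p = 1 by edgeR's quasi-likelihood test) and -0.57 in CM_EE_IVF over CM_EE (interval -1.20 to 0.06, unadjusted p = 0.0705 and adjusted p = 1). NOS3 was 1 of 7 members whose groups did not overlap, against 1.4% of all genes lower without overlap in CM_EE_AI and 2.43% in CM_EE_IVF. The closest R number was R5, where the difference was -0.10 in CM_EE_AI and -0.19 in CM_EE_IVF, against -1.18 and -0.59 in R4 and -0.70 and -0.91 in R2, and 7.55% and 13.4% of all genes were lower in 3 of 3 R numbers in these comparisons. Over NC the log2 fold change was -0.48 in CM_EE_AI (interval -1.11 to 0.15) and -0.41 in CM_EE_IVF (interval -1.03 to 0.22).

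By their log2 fold changes between groups, the endothelial markers moved the same way as NOS3 in these comparisons, but not within R5. Of the 14 markers, 14 had a log2 fold change under 0 in CM_EE_AI over CM_EE, with a median of -0.23 beside 0.06 over all genes, and 13 of 14 in CM_EE_IVF over CM_EE, with a median of -0.27 beside -0.02. Their sum was 1452 to 3640 CPM in CM_EE_AI, 1294 to 3413 CPM in CM_EE_IVF and 1351 to 4748 CPM in CM_EE, with 0 of 14 passing the test. In CM_EE_IVF, CM_EE_AI and CM_EE it was 1294, 1452 and 1949 CPM within R4, and 3413, 3640 and 4748 CPM within R2. Within R5 it went the other way, at 1423, 1545 and 1351 CPM, while NOS3 was lower than in CM_EE there too. The part of these markers in the NOS3 difference was not tested. Steroidogenic, fibroblast, and smooth muscle and pericyte markers lay mostly above 0 in the same comparisons, as AGTR1, ACE and ECE1 did. Of all genes, 56.1% were above 0 in CM_EE_AI over CM_EE and 47.6% in CM_EE_IVF over CM_EE. In CM_EE_AI over CM_EE, 8 of 8 steroidogenic markers (median 0.61), 6 of 6 fibroblast markers (0.40) and 8 of 11 smooth muscle and pericyte markers (0.15) were above 0. In CM_EE_IVF over CM_EE these counts were 7 of 8 (median 0.32), 6 of 6 (0.90) and 8 of 11 (0.58), again with 0 passing the test. Other cell types were mixed. In CM_EE_AI over CM_EE, 5 of 5 epithelial, 4 of 7 leukocyte and 2 of 4 erythroid markers were above 0. In CM_EE_IVF over CM_EE, 2 of 5 epithelial, 4 of 7 leukocyte and 0 of 4 erythroid markers were above 0. The part of all these markers in the AGTR1, ACE and ECE1 values was not tested. In tissue RNA, fewer endothelial cells and less NOS3 RNA per cell cannot be told apart. The RefSeq annotation places NOS3 over part of ATG9B, and whether the counting used strand is not stated. ATG9B was at 0.538 to 3.59 CPM, with 11 to 78 counts per library. EDNRA, ECE1 and ACE also overlap a small nuclear or long non-coding RNA gene there.

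**Figure D2:**
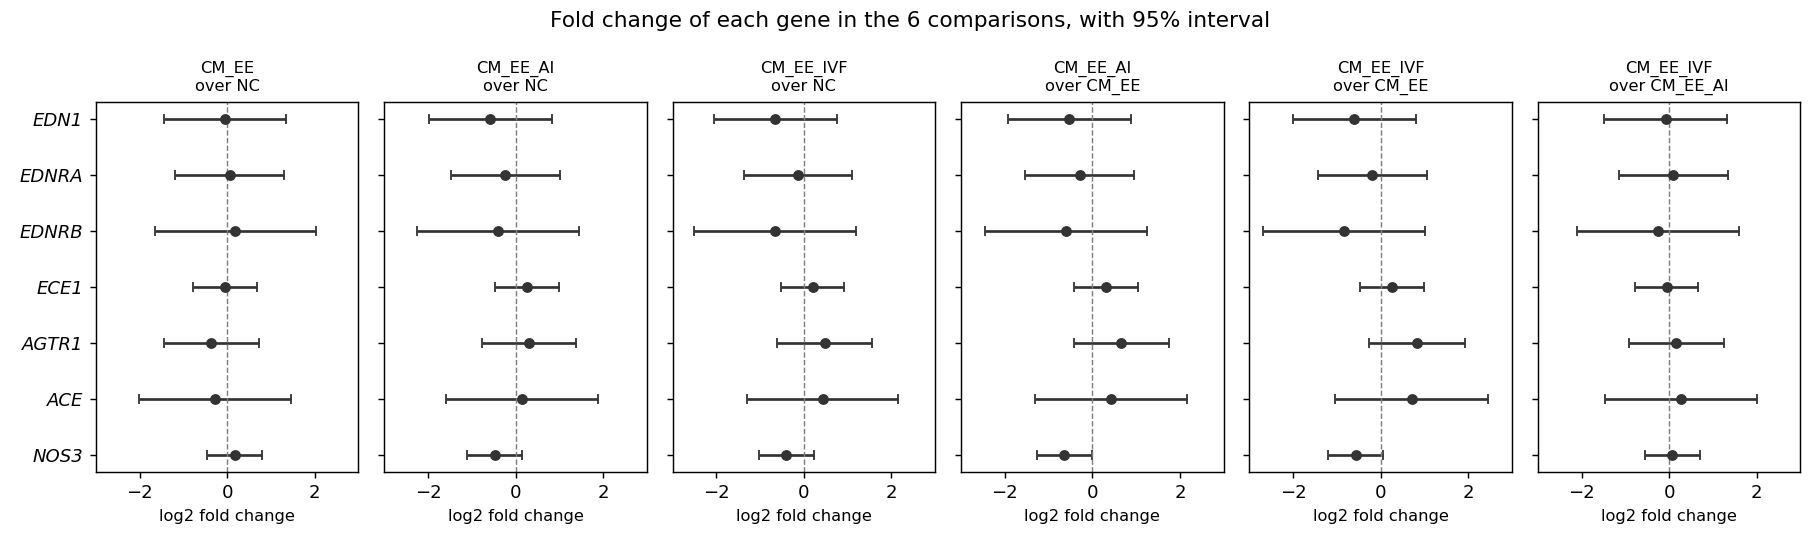
Log2 fold change (horizontal axes) of each gene in the 6 comparisons, with points for the edgeR estimate and bars for its 95% interval, and a dashed line at 0. The interval of NOS3 in CM_EE_AI over CM_EE, from -1.27 to -0.01, is the one that leaves out 0, and the intervals of EDNRB and ACE are the widest.

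The members as a group showed no common direction. The 7 log2 fold changes had a median of -0.05 in CM_EE over NC (3 above 0 and 4 below), -0.23 in CM_EE_AI over NC (3 and 4) and -0.14 in CM_EE_IVF over NC (3 and 4), beside medians of -0.03, 0.03 and -0.04 over all genes. In CM_EE_AI over CM_EE and in CM_EE_IVF over CM_EE, EDN1, EDNRA, EDNRB and NOS3 were below 0 and ECE1, AGTR1 and ACE above, with medians of -0.29 and -0.20 beside 0.06 and -0.02.

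Within a library, the ratio of 2 genes does not depend on scaling. The count of EDNRA over that of EDNRB was 1.47, 0.687 and 0.766 in R5, R4 and R2 of CM_EE_IVF, 0.944, 0.578 and 0.659 in CM_EE_AI, 1.38, 0.350 and 0.600 in CM_EE and 1.35, 0.519 and 0.492 in NC. R5 held the highest ratio of each group, and EDNRA exceeded EDNRB in counts in the R5 libraries of CM_EE_IVF, CM_EE and NC alone. The mean log2 ratio differed from NC by 0.39 in CM_EE_IVF (exact two-sided permutation p = 0.5), 0.02 in CM_EE_AI (exact p = 1) and -0.08 in CM_EE (exact p = 1), and 3 against 3 libraries allow no p under 0.1. The count of NOS3 over that of EDN1 was 16.9, 4.77 and 9.18 in R5, R4 and R2 of CM_EE_IVF, 13.9, 4.14 and 6.77 in CM_EE_AI, 11.04, 4.46 and 14.4 in CM_EE and 8.44, 4.96 and 10.5 in NC. R4 was the lowest in each group. Its mean log2 ratio differed from NC by 0.25 in CM_EE_IVF (exact two-sided permutation p = 0.8), -0.06 in CM_EE_AI (exact p = 1) and 0.23 in CM_EE (exact p = 0.7). After Benjamini-Hochberg adjustment over the 3 comparisons of a ratio, each p was 1.

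**Figure D3:**
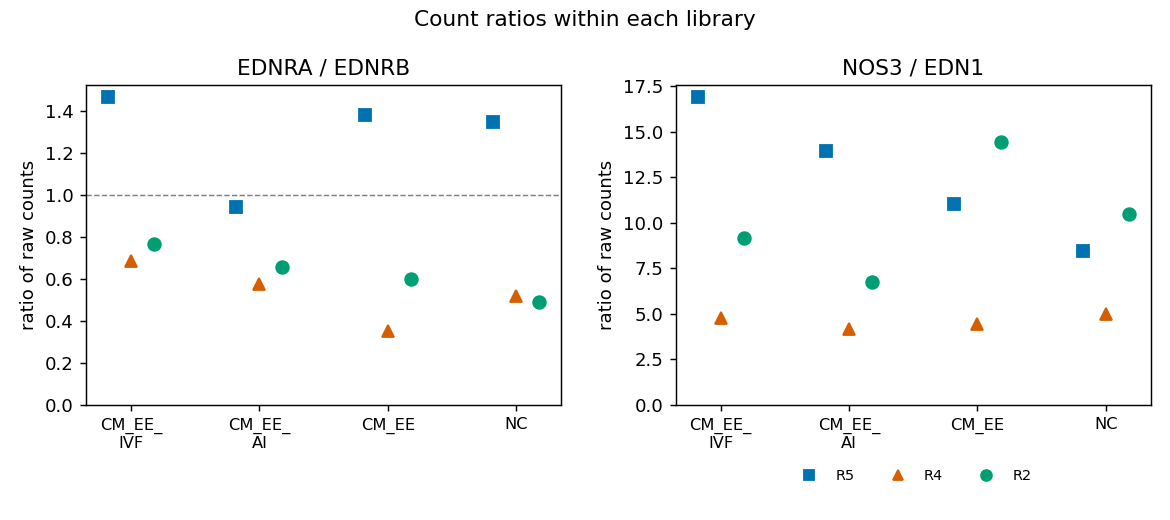
Ratio of raw counts within each library (vertical axes), EDNRA over EDNRB on the left with a dashed line at a ratio of 1, and NOS3 over EDN1 on the right, by group and R number. R5 libraries hold the highest EDNRA to EDNRB ratio of each group (0.944 to 1.47), and R4 libraries the lowest NOS3 to EDN1 ratio (4.14 to 4.96).

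These genes did differ between R numbers. With group and R number in the model, edgeR's F test of the R numbers called 5 of the 7 genes at an adjusted p under 0.05, where 26.7% of all genes (5063 of 18939) were called. The adjusted p was 0.000132 for EDNRB, 0.00452 for EDNRA, 0.00509 for ACE, 0.00905 for EDN1 and 0.0415 for AGTR1, while ECE1 (0.0592) and NOS3 (0.897) did not pass. The AGTR1 call was lost without CM_EE R5 (adjusted p = 0.0733), CM_EE_AI R5 (0.138), CM_EE_IVF R2 (0.107) or CM_EE_IVF R5 (0.0946), the EDN1 call without CM_EE R4 (0.0559), and ECE1 passed without CM_EE_AI R4 (0.0338). What the R numbers mark is not given, so animal, day and sequencing run cannot be told apart.

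**Figure D4:**
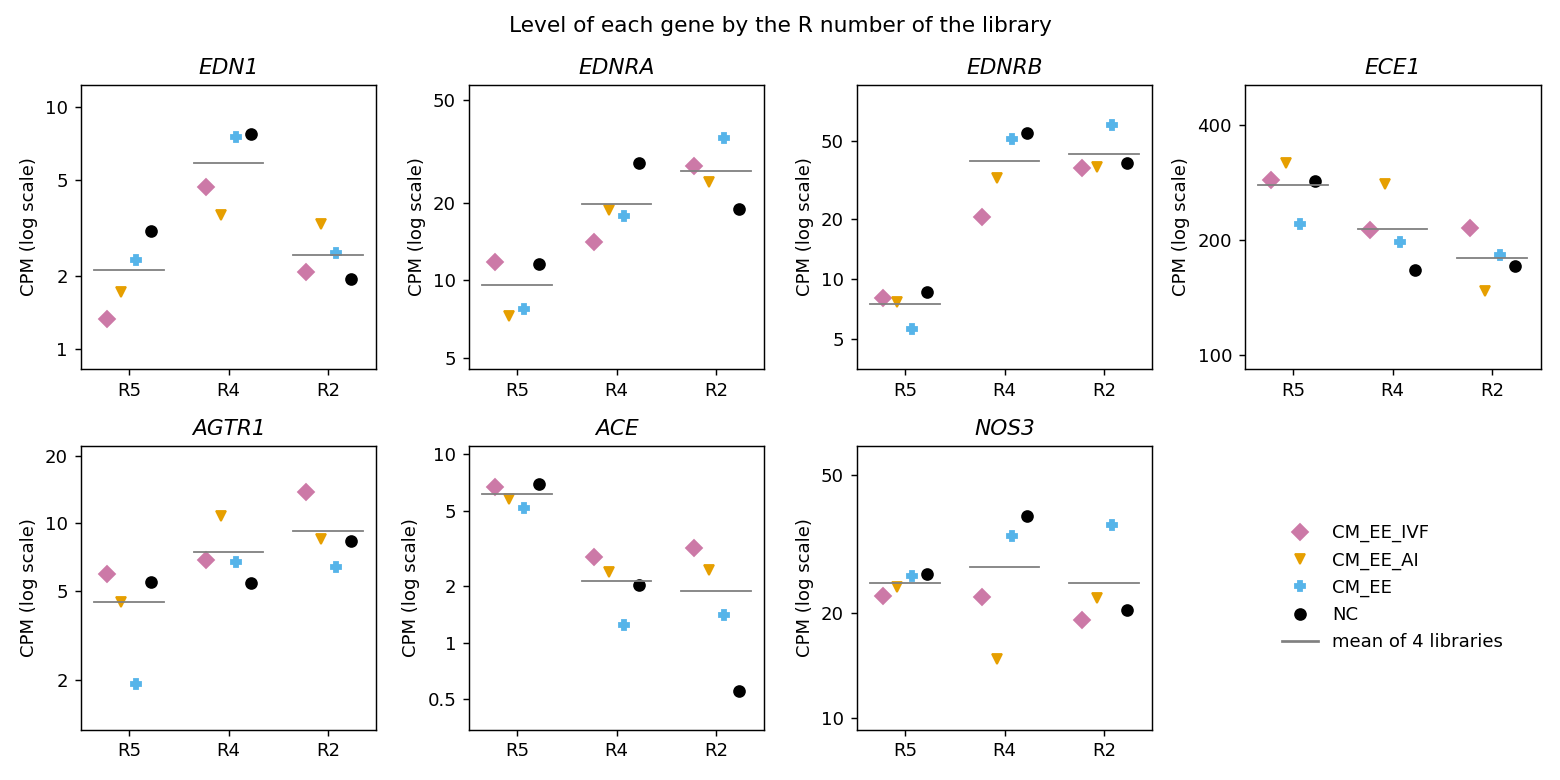
Level of each gene in CPM (log scale) in the R5, R4 and R2 libraries, with points for the 4 groups and a line for the mean of 4 libraries. EDNRB and ACE separate the R5 libraries from the rest (5.62 to 8.58 CPM and 5.18 to 6.95 CPM), EDN1 the R4 libraries (3.57 to 7.68 CPM), and NOS3 overlaps between the R numbers.

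EDNRB was lowest in R5. Its mean was 7.47 ± 1.29 CPM in R5, 39.7 ± 16.04 CPM in R4 and 42.8 ± 11.3 CPM in R2 (SD, n = 4 libraries of different groups), a log2 fold change of -2.48 in R5 over R2 (95% interval -3.07 to -1.88, edgeR adjusted p = 8.07e-05) and -2.32 in R5 over R4 (interval -2.91 to -1.72, adjusted p = 0.000369). The 4 R5 libraries lay under the 8 others for EDNRB and for EDNRA, where 13.5% of all genes had R5 libraries under all R2 libraries and 11.5% under all R4 libraries. Both EDNRB calls held in 16 of 16 alternatives. EDNRA was lower in R5 too, at 9.59 ± 2.41 CPM in R5, 19.8 ± 6.11 CPM in R4 and 26.7 ± 7.10 CPM in R2, a log2 fold change of -1.50 in R5 over R2 (interval -2.09 to -0.91, adjusted p = 0.00213) and -1.04 in R5 over R4 (interval -1.63 to -0.46, adjusted p = 0.0232). The call over R2 held in 16 of 16 alternatives, and that over R4 was lost without NC R4 (0.0869), CM_EE R4 (0.0505), CM_EE R5 (0.0658), CM_EE_AI R4 (0.0709) or CM_EE_AI R5 (0.100). Of all genes, 9.26% were called lower in R5 over R2 and 8.67% in R5 over R4.

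ACE was highest in R5, at 6.16 ± 0.827 CPM in R5, 2.13 ± 0.687 CPM in R4 and 1.89 ± 1.15 CPM in R2. Its log2 fold change was 1.85 in R5 over R2 (interval 0.99 to 2.71, edgeR adjusted p = 0.00571), which held in 16 of 16 alternatives. It was 1.61 in R5 over R4 (interval 0.77 to 2.45, adjusted p = 0.0164), which was lost without NC R5 (0.0805), CM_EE R4 (0.0693) or CM_EE R5 (0.0653). Of all genes, 11.5% were called higher in R5 over R2 and 5.58% in R5 over R4, and 17.4% and 10.6% had R5 libraries above all of R2 and of R4, as ACE had. ACE and EDNRB are both known as endothelial genes, and they were the 2 members least alike across libraries.

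EDN1 was highest in R4, at 2.11 ± 0.767 CPM in R5, 5.86 ± 2.06 CPM in R4 and 2.45 ± 0.595 CPM in R2. The log2 fold change was 1.19 in R4 over R2 (interval 0.46 to 1.91, edgeR adjusted p = 0.0336), a comparison in which 8.72% of all genes were called higher and 10.9% were higher without overlap, as EDN1 was, and -1.48 in R5 over R4 (interval -2.20 to -0.76, adjusted p = 0.0117). The R4 over R2 call was lost in 8 of 16 alternatives, each without 1 library (any library of NC or of CM_EE, CM_EE_IVF R2 or CM_EE_IVF R4), with adjusted p-values of 0.0529 to 0.165. The R5 over R4 call was lost without CM_EE R4 (0.0579) or CM_EE_AI R5 (0.0520).

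AGTR1 was at 4.47 ± 1.80 CPM in R5, 7.46 ± 2.33 CPM in R4 and 9.27 ± 3.20 CPM in R2, a log2 fold change of -1.08 in R5 over R2 (interval -1.73 to -0.43, edgeR adjusted p = 0.0222). That call was lost without CM_EE_AI R5 (0.0816), CM_EE_IVF R2 (0.0959) or CM_EE_IVF R5 (0.0539). ECE1 was at 278 ± 40.8 CPM in R5, 214 ± 48.1 CPM in R4 and 179 ± 28.3 CPM in R2. Its log2 fold change of 0.62 in R5 over R2 (interval 0.22 to 1.03, adjusted p = 0.0327) was lost in 10 of 16 alternatives, among them RLE (relative log expression) size factors (0.51, adjusted p = 0.0895), which lowered the median of all genes in R5 over R2 to -0.02, against 0.08 with TMM. NOS3 was at 24.5 ± 1.66 CPM in R5, 27.2 ± 10.6 CPM in R4 and 24.4 ± 7.78 CPM in R2, and its intervals of -0.45 to 0.53 in R5 over R2 and -0.57 to 0.41 in R5 over R4 held 0.

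Cell type markers also differed between R numbers. By the same F test, 10 of 14 endothelial markers, 8 of 11 smooth muscle and pericyte markers, 5 of 6 fibroblast markers, 7 of 8 steroidogenic markers, 1 of 7 leukocyte markers, 2 of 5 epithelial markers and 2 of 4 erythroid markers passed, beside 26.7% of all genes. Of the 10 endothelial markers that passed, 8 were highest in R2 and 2 in R5. FLT1, a vascular endothelial growth factor receptor, averaged 368 CPM in R5, 461 CPM in R4 and 2053 CPM in R2, and VWF, the von Willebrand factor, 78.4 CPM in R5, 63.5 CPM in R4 and 183 CPM in R2. TEK, the angiopoietin receptor, went the other way, at 61.4 CPM in R5, 44.3 CPM in R4 and 30.5 CPM in R2, and EGFL7 averaged 53.0 CPM in R5, 28.6 CPM in R4 and 46.5 CPM in R2. EDNRB averaged 39.7 CPM in R4 and 42.8 CPM in R2, where the endothelial sum was 1294 to 1949 CPM in R4 and 3413 to 4748 CPM in R2 (without FLT1, 962 to 1417 CPM and 1657 to 2121 CPM). The smooth muscle and pericyte sum was 205 to 259 CPM in R5, 282 to 578 CPM in R4 and 277 to 428 CPM in R2, and the fibroblast sum 323 to 399 CPM in R5, 243 to 973 CPM in R4 and 618 to 998 CPM in R2. The erythroid sum was 4.00 to 4.49 CPM in R5, 3.23 to 5.94 CPM in R4 and 33.6 to 61.1 CPM in R2. HBA and HBA1 held the R2 excess, averaging 21.1 and 21.2 CPM in R2 against 1.12 and 1.04 CPM in R4. HBB averaged 1.01 CPM in R5, 1.33 CPM in R4 and 0.360 CPM in R2, and ALAS2 1.22, 0.519 and 0.952 CPM, neither passing the F test. The epithelial sum was 7.25 to 10.4 CPM in R5, 20.3 to 111 CPM in R4 and 15.4 to 25.9 CPM in R2. The part of these markers in the differences of EDN1, EDNRA, EDNRB, AGTR1 and ACE was not tested.

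The other genes of the 3 pathways were read from lists. Including the members, 0 of 9 endothelin genes, 0 of 14 renin-angiotensin genes and 0 of 24 nitric oxide genes passed in any of the 6 comparisons between groups (edgeR, adjusted p under 0.05). In CM_EE_AI over CM_EE, 11 of the 14 renin-angiotensin genes were above 0, with a median of 0.27 beside 0.06 over all genes, and in CM_EE_IVF over CM_EE 9 of 14, with a median of 0.12 beside -0.02. PDE5A, which breaks down the second messenger of nitric oxide, was at 47.8, 63.9 and 55.2 CPM in R5, R4 and R2 of CM_EE_IVF, 53.6, 57.7 and 54.2 CPM in CM_EE_AI, 41.4, 39.5 and 37.3 CPM in CM_EE and 47.3, 45.2 and 42.5 CPM in NC. It was named because its groups did not overlap, every CM_EE_IVF and CM_EE_AI library lying above those of CM_EE and of NC. Of all genes, 3.17% and 1.94% were higher without overlap in CM_EE_IVF and CM_EE_AI against CM_EE, and 2.41% and 1.99% against NC. Its log2 fold change was 0.50 in CM_EE_IVF over CM_EE (95% interval 0.03 to 0.97, unadjusted p = 0.0392, adjusted p = 1 by edgeR) and 0.49 in CM_EE_AI over CM_EE (interval 0.02 to 0.96, unadjusted p = 0.0437, adjusted p = 1). Over NC the PDE5A change was smaller, at 0.31 in CM_EE_IVF (interval -0.16 to 0.78) and 0.29 in CM_EE_AI (interval -0.17 to 0.76). In CM_EE over NC it was -0.19 (interval -0.66 to 0.28). ASS1, which remakes arginine, the substrate of NOS3, from citrulline, averaged 6.40 ± 0.722 CPM in CM_EE_IVF, 6.84 ± 1.82 CPM in CM_EE_AI and 9.74 ± 1.81 CPM in CM_EE (SD, n = 3), with each library below those of CM_EE, for which it was named. NC, at 6.59 to 12.1 CPM, overlapped both embryo groups. The ASS1 log2 fold changes over CM_EE were -0.61 (interval -1.30 to 0.09) and -0.51 (interval -1.20 to 0.18).

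Between R numbers, 2 of 5 further endothelin genes, 3 of 12 further renin-angiotensin genes and 12 of 23 further nitric oxide genes passed the F test, beside the 26.7% of all genes. EDN2, another endothelin ligand, averaged 0.458 CPM in R5, 2.54 CPM in R4 and 0.684 CPM in R2 (adjusted p = 0.0107), highest in R4 as EDN1 was, with counts of 3 to 59. MME, neprilysin, which degrades endothelin, averaged 10.6 CPM in R5, 3.91 CPM in R4 and 5.04 CPM in R2 (adjusted p = 0.00665). MAS1, the receptor of angiotensin-(1-7), averaged 3.90 CPM in R5, 4.02 CPM in R4 and 1.02 CPM in R2 (adjusted p = 0.0242). The nitric oxide list had 7 genes highest in R2, 4 in R4 and 1 in R5. NOS2, the inducible synthase, averaged 5.70 CPM in R5, 4.43 CPM in R4 and 12.6 CPM in R2 (adjusted p = 0.000717). NOSTRIN, which moves NOS3 away from the cell membrane, averaged 69.5 CPM in R5, 71.9 CPM in R4 and 32.8 CPM in R2 (adjusted p = 0.00349). PRKG1, the kinase downstream of nitric oxide, averaged 141 CPM in R5, 288 CPM in R4 and 394 CPM in R2 (adjusted p = 0.0158).

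Likeness was measured as the root mean square difference of log2 CPM, centred per gene, over the 12 libraries, which share their scaling and R numbers, among 13079 genes with a symbol and a mean of at least 1 CPM. Among the members, EDNRA and AGTR1 were the closest pair (0.57), followed by ECE1 and NOS3 (0.60) and by EDNRA and EDNRB (0.62). EDNRB and ACE were the farthest apart (2.11). The measure is also small where 2 genes vary little. ECE1 and NOS3 differed by more (0.60) than either varied alone (SD of 0.36 and 0.39 on the log2 scale), so their rank does not show a shared course. The gene nearest to EDNRB was MEG3, a long non-coding RNA, at 0.28, followed by ITGB3, an integrin subunit, and HIF1A, the hypoxia-inducible factor, both at 0.29. Nearest to EDNRA were RUNX1, a transcription factor, GLIS3 and PDE8A (0.19, 0.19 and 0.20). EDN1 was nearest to MET, the hepatocyte growth factor receptor (0.28), then PELP1 (0.32) and GHSR (0.33). AGTR1 was nearest to POLR2K (0.29), DCN (0.30) and NDUFS8 (0.32), and ACE to TTF1, ABCA9 and IQCE, which were each at 0.43. Among the genes near ECE1 were METTL14 (0.10) and OGT (0.11), and NOS3 was nearest to CMIP (0.14), NLRC5 (0.16) and LRRC69 (0.17). The low values of ECE1 and NOS3 go with their small spread over libraries, an SD of 0.36 and 0.39 on the log2 scale, against 1.25 for EDNRB and 1.05 for ACE.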

How the data were processed

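PolyA RNA of corpus luteum was sequenced, and the authors deposited a table of read counts per gene, semicolon-separated, with 1 column per group and R number. Each of the 12 deposited columns held whole numbers, so no value was an estimated, fractional expected count. Trim Galore, cutadapt, STAR, featureCounts and DESeq2 stand in the submitters' processing notes, with no version. No build, annotation or strand setting was given in the sources used here. For the corpus luteum, labels list 20 luteal sample titles, 2 per column for R4 and R5, and how they were joined is not given. Of the pairs of libraries, 0 were identical. The lowest sum of a gene over the libraries was 36 counts. The endometrial tables were not used here.

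Genes were kept with filterByExpr, scaled by TMM and tested in 1 model of 4 groups with edgeR's quasi-likelihood F test (R 4.3.3, edgeR 4.0.16, limma 3.58.1), adjusted by Benjamini-Hochberg over 18939 genes, threshold 0.05. R numbers were tested in a model of group and R number. The script was tested on simulated data. Alternatives were DESeq2 1.42.0, RLE size factors, no filter, no mitochondrially encoded genes, only the compared groups, the R number as a block, R4 and R5 alone, and each library left out. The members and lists were chosen with earlier results of these data known. Genes outside the members were named where they passed, or, up to 4 per list by lowest p, where their groups did not overlap at a mean of at least 1 CPM. FLT1, VWF, ATG9B and the genes named between R numbers outside the members were picked with their values in view. The 3 genes nearest to each member were also named, and 2 genes that these rules or choices took in are not reported here. Overlaps of genes were read by symbol from a RefSeq table of the ARS-UCD2.0 assembly, which held 7 of 7 members.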

Additional observations from a re-analysis of the deposited data

How the results depend on the processing

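None of the 7 genes passed in any of the 6 comparisons under the 13 alternatives of each. The number of genes called was 0 throughout, so the calls did not depend on the processing. Directions in these comparisons kept their sign with DESeq2, RLE size factors, no filter, no mitochondrially encoded genes and only the compared groups. With the R number as a block 1 changed, and the other changes came where libraries were left out. Of the 42 log2 fold changes, 15 kept their sign under every alternative, among them NOS3 in CM_EE_AI over CM_EE (-0.79 to -0.46 with 1 library left out) and in CM_EE_IVF over CM_EE (-0.73 to -0.46), and 26 changed sign when 1 library was left out (51 of 252 such fits). The cause was not tested. EDN1 and ACE had the lowest counts of the members, with as few as 31 and 11 in a library. Sign changes were not confined to them. EDNRA, with 152 to 720 counts per library, changed sign in every comparison when 1 library was left out.

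Same-numbered libraries correlated at 0.0813 to 0.662 in their deviations from the group means, over 0.1 in 15 of 18 pairs, and libraries of different numbers at -0.49 to 0.198, over 0.1 in 6 of 36. The labels do not say that a number marks a shared animal or day, and 3 same-numbered pairs were not over 0.1. The tests between groups were therefore made without the number, and differences between R numbers stayed in their spread. For EDNRB in CM_EE_IVF over CM_EE, the interval was -2.70 to 1.01 without the number and -1.19 to 0.12 with it as a block. Each of the 12 libraries correlated best with one of its own number, which is a hint from the data and not the design. With the R number as a block, 0 genes were called in each comparison, with 298, 679, 817, 865, 976 and 163 unadjusted p-values under 0.05 (CM_EE, CM_EE_AI and CM_EE_IVF over NC, CM_EE_AI and CM_EE_IVF over CM_EE, CM_EE_IVF over CM_EE_AI), and EDNRA in CM_EE over NC turned to -0.13. The block left 0 out of 3 of the 42 intervals in place of 1, those of NOS3 in CM_EE_AI over CM_EE (-1.20 to -0.07), of NOS3 in CM_EE_IVF over CM_EE (-1.14 to -0.01) and of AGTR1 in CM_EE_IVF over CM_EE (0.15 to 1.64), with adjusted p-values of 0.957 to 0.992 by edgeR. DESeq2 gave 1 member an unadjusted p under 0.05 in each of these comparisons. Differences of the ratios within R numbers had p-values of 0.25 to 1 by an exact sign-flip test, which flips the signs of the paired differences. The smallest p that 3 pairs allow in it is 0.25.

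With R4 and R5 alone, CM_EE over NC turned to -0.63 for EDNRA, -0.17 for EDNRB and -0.080 for NOS3, CM_EE_AI over NC to -0.13 for ACE, CM_EE_AI over CM_EE to 0.0052 for EDNRA, and CM_EE_IVF over CM_EE_AI to 0.21 for EDN1, -0.0063 for EDNRA and -0.25 for AGTR1.

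With 1 library left out, the ranges that crossed 0 were as follows. CM_EE over NC gave -0.82 to 0.70 for EDN1, -0.67 to 0.44 for EDNRA, -0.33 to 0.72 for EDNRB, -0.19 to 0.18 for ECE1, -0.63 to 0.00048 for AGTR1 and -1.23 to 0.98 for ACE. CM_EE_AI over NC gave -0.89 to 0.18 for EDN1, -0.67 to 0.13 for EDNRA, -0.88 to 0.12 for EDNRB and -0.40 to 1.39 for ACE. CM_EE_IVF over NC gave -1.31 to 0.10 for EDN1, -0.60 to 0.23 for EDNRA, -0.00059 to 0.75 for AGTR1 and -0.068 to 1.66 for ACE. CM_EE_AI over CM_EE gave -0.79 to 0.24 for EDN1, -0.71 to 0.44 for EDNRA and -0.12 to 1.38 for ACE. CM_EE_IVF over CM_EE gave -1.27 to 0.16 for EDN1 and -0.66 to 0.53 for EDNRA. CM_EE_IVF over CM_EE_AI gave -0.74 to 0.25 for EDN1, -0.37 to 0.52 for EDNRA, -0.84 to 0.17 for EDNRB, -0.28 to 0.16 for ECE1, -0.31 to 0.45 for AGTR1, -0.22 to 0.83 for ACE and -0.11 to 0.21 for NOS3.

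Between R numbers, R4 over R2 gave -0.43 to 0.073 for EDNRB, -0.049 to 0.35 for ECE1, -0.26 to 0.48 for ACE and -0.16 to 0.34 for NOS3. NOS3 gave -0.27 to 0.057 in R5 over R2 and -0.30 to 0.15 in R5 over R4, and R5 over R2 turned to -0.066 with DESeq2, -0.066 with RLE size factors and -0.055 without mitochondrially encoded genes. Genes called between R numbers numbered 3374 (without CM_EE_AI R5) to 5141, against 5063 with every library. The log2 ratio of EDNRA to EDNRB gave -0.61 to 0.39 in CM_EE over NC and -0.23 to 0.49 in CM_EE_AI over NC. That of NOS3 to EDN1 gave -0.12 to 0.73 in CM_EE over NC, -0.52 to 0.35 in CM_EE_AI over NC and -0.20 to 0.71 in CM_EE_IVF over NC. The alternatives for the differences between pairs of R numbers were chosen after seeing the data.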

Other observations

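Lists of other vasoactive and luteal genes showed the same split, with 0 of 19 kinin, natriuretic peptide and related vasoactive genes, 0 of 22 receptor coupling and contraction genes and 0 of 20 luteolysis genes passing in any comparison between groups. Between R numbers, 10 of 19, 11 of 22 and 18 of 20 passed edgeR's F test at an adjusted p under 0.05, beside 26.7% of all genes. PTGFR, the prostaglandin F receptor through which luteal regression starts, averaged 114 CPM in R5, 400.1 CPM in R4 and 139 CPM in R2 (adjusted p = 0.00225). By group it averaged 237 CPM in CM_EE_IVF, 310 CPM in CM_EE_AI, 201 CPM in CM_EE and 124 CPM in NC. Single libraries ran from 105 to 682 CPM, a wider range than that of the group means. The part of the R4 libraries in the group means of PTGFR was not tested. Its log2 fold changes over NC were 0.93 in CM_EE_IVF, 1.32 in CM_EE_AI and 0.70 in CM_EE, none passing the test. Of the 18 luteolysis genes that passed, 13 were highest in R4, 4 in R2 and 1 in R5. STAR, CYP11A1, HSD3B1 and LHCGR stand both in this list and among the steroidogenic markers. EGR1, an early response transcription factor, averaged 60.4 CPM in R5, 331 CPM in R4 and 76.3 CPM in R2 (adjusted p = 7.89e-05), and FOS, another, 77.1 CPM in R5, 317 CPM in R4 and 117 CPM in R2 (adjusted p = 0.000151). PTGFR, EGR1 and FOS were chosen after their values were seen.

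APLN, the ligand of the apelin receptor, averaged 1.02 CPM in R5, 2.53 CPM in R4 and 5.86 CPM in R2 (adjusted p = 0.000232), and ADM, adrenomedullin, a vasodilator peptide, 41.9 CPM in R5, 71.6 CPM in R4 and 105 CPM in R2 (adjusted p = 0.0214). Both were chosen after their values were seen. Between groups, TBXAS1, the thromboxane synthase, was at 17.8, 13.9 and 10.96 CPM in R5, R4 and R2 of CM_EE_IVF, 14.1, 12.7 and 16.4 CPM in CM_EE_AI, 19.4, 33.3 and 16.4 CPM in CM_EE and 19.0, 39.9 and 15.4 CPM in NC. CM_EE_AI R2 and CM_EE R2 were level, and the log2 fold change in CM_EE_AI over CM_EE was -0.68 (95% interval -1.51 to 0.16, unadjusted p = 0.103). HSD3B1, a steroidogenic enzyme of progesterone synthesis, had 819, 1322 and 909 CPM in R5, R4 and R2 of CM_EE_IVF and 786, 612 and 472 CPM in NC, a log2 fold change of 0.71 (interval -0.42 to 1.83, unadjusted p = 0.197). It was at 983, 2470 and 543 CPM in CM_EE_AI and 553, 1063 and 423 CPM in CM_EE, and both overlapped NC. Over NC the log2 fold change was 1.10 in CM_EE_AI and 0.13 in CM_EE.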
